A study of Mus musculus with 8 samples.

Results

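The microRNAs miR-124 and miR-9 were followed in the mouse amygdala after fear learning, through every capture probe of the array that carries a mouse miR-124 or miR-9 name. Probes were chosen by name alone, with any arm or locus suffix allowed, and 4 of the 1034 mouse probes (of 2607 capture probes in all) met the rule. These were the probes named mmu-miR-124, mmu-miR-124*, mmu-miR-9 and mmu-miR-9*, where the asterisk marks the strand that was thought less abundant when the array was designed. Each was printed as 4 spots, which gives 16 of the 12312 spots on an array.

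The fear conditioned mice were 4 adult male C57/Bl6J animals killed 30 min after auditory fear conditioning, in which a 6 kHz tone was paired with a 0.6 mA shock on 5 occasions, and the comparison was with 4 adult males of the same background left in the home cage. No tone-only, shock-only or later group is among the samples, so the comparison takes in handling, sound, shock and learning together. Both amygdalae of each animal were collected with a 1 mm punch of frozen brain, and each animal had an array of its own. The animal's RNA carried the dye Hy3 and shared the array with a Hy5-labelled pool made from the individual animals, over capture probes that hold locked nucleic acid, whose stiffened sugar ring strengthens pairing with short RNAs.

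In vertebrates miR-124 is a microRNA of nearly all neurons. Its 3p strand is the guide, the strand loaded into the silencing complex, and it represses non-neuronal transcripts such as that of the splicing repressor PTBP1. miR-9 is made in neural progenitors and in many neurons. Both of its strands are used: miR-9 itself (miR-9-5p) targets the transcript of the repressor REST, and miR-9* (miR-9-3p) that of the REST cofactor CoREST. Both microRNAs are repressed by REST, and together with miR-124, miR-9* lowers the chromatin subunit BAF53a as cells become neurons. In the sea slug Aplysia, miR-124 restrains CREB during serotonin-induced synaptic facilitation, a cellular form of memory.

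The mature strands of miR-9 are shown because they are what the miR-9 and miR-9* probes are named for and because their seeds, bases 2 to 8, differ. Of the 4 probes, 2 matched a mature sequence in RefSeq's table for the mouse assembly GRCm38.p6. The sequences are written 5′ to 3′ with the seed in capitals.
mmu-miR-9-5p: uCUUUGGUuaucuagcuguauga
mmu-miR-9-3p: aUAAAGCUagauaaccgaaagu
The first strand is 23 bases long with a GC content of 34.8%, and the second is 22 bases long with 31.8%. Neither seed was shared by any other of the 1674 distinct mature sequences in that table (0 others for each strand), so the arms of the same precursor carry different seeds.

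RefSeq places miR-9 at 3 loci, all on the plus strand of GRCm38.p6: Mir9-1 at chr3:88215598-88215686, Mir9-2 at chr13:83738814-83738885 and Mir9-3 at chr7:79505264-79505353. The hairpins are shown, with both arms in capitals, because the arms are identical at all 3 loci and the arrays therefore cannot say which locus the RNA came from.
Mir9-1: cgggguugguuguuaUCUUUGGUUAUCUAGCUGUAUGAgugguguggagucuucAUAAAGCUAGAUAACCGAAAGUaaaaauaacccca
Mir9-2: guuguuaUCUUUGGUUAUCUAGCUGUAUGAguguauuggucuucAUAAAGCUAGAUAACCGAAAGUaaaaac
Mir9-3: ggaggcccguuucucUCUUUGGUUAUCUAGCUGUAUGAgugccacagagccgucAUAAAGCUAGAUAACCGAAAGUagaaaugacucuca
The loop between the arms is 16 bases long in Mir9-1 and Mir9-3 and 14 bases long in Mir9-2, and no 2 of the loops are identical. RefSeq lists 3 loci of miR-124 in the same assembly, Mir124a-1, Mir124a-2 and Mir124a-3, and the array has 1 probe for each strand.

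All 4 probes, averaged over their spots, gave signal on all 8 arrays that exceeded what 95% of negative control spots gave. Before any correction, the spots of miR-124 averaged 16653, 16290, 27040 and 26743 intensity units on fear conditioned arrays 1 to 4, against 24912, 22146, 18165 and 19079 units on home cage arrays 1 to 4. Those of miR-9 averaged 6115, 6181, 9281 and 10259 units on the fear conditioned arrays, against 5987, 6882, 5665 and 6468 units on the home cage arrays. The spots of miR-124* averaged between 104 and 139 units on the fear conditioned arrays and between 102 and 112 units on the home cage arrays, over a local background that averaged 101 units on home cage array 1 and close to 50 on the others. Fear conditioned arrays 3 and 4 were bright in all 4 probes, and they were also the brightest arrays as a whole: the 95th percentile of capture probe signal was 794 and 901 units there, against 600 and 612 units on the other fear conditioned arrays and 498 to 589 units on the home cage arrays. None of the 128 spots of these probes was marked saturated. Brightness differs between probes for reasons of their own, so no level of 1 probe is set against that of another.

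The comparison asks whether the level of either microRNA differed between the groups 30 min after conditioning, in a design where slide order follows the groups. None of the 4 probes passed the test in either direction. The normalised Hy3 signal of miR-124 was 14.07, 14.18, 14.37 and 14.42 (log2) on fear conditioned arrays 1 to 4, against 14.46, 14.49, 14.50 and 14.37 on home cage arrays 1 to 4. Fear conditioned arrays 1 and 2 lay well below every home cage array and array 3 barely below the lowest of them, while array 4 lay above 1 home cage array, so the groups overlapped. Means were 14.26 ± 0.164 in fear conditioned and 14.46 ± 0.0594 in home cage mice (SD, n = 4 each), a difference of -0.19 log2 units (SE 0.0785, 95% interval -0.38 to -0.013), or 0.874 times the home cage signal. With limma and Benjamini-Hochberg adjustment over all 1034 mouse probes the adjusted p was 0.344, and an exact permutation test (two-sided, 70 arrangements) gave 0.0571. This difference turned to 0.053 with arrays centred on the dimmer class of spike-in controls, a choice made after seeing the data. It was -0.16 with the planned centring on both classes and -0.20 with the brighter class alone. These centrings also moved the median of all mouse probes, to -0.14 and -0.18, and relative to that median miR-124 stood at -0.022 in both. With arrays centred on their medians the miR-124 difference shrank to -0.022. Before normalisation between arrays it was 0.0096, and under cyclic loess normalisation -0.34.

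The other strand of that precursor, miR-124*, was near the lower end of the measurable range. Its normalised Hy3 signal was 6.94, 6.87, 6.99 and 7.03 on fear conditioned arrays 1 to 4, against 6.85, 7.03, 7.04 and 6.95 on home cage arrays 1 to 4. The groups covered almost the same range. They averaged 6.96 ± 0.0669 in fear conditioned and 6.96 ± 0.0880 in home cage mice (SD, n = 4 each), a difference of -0.0055 with a 95% interval from -0.12 to 0.11 and an adjusted p of 0.962 in limma. On home cage array 1, 2 of its 4 spots lay in high local background, and without high-background spots, a choice made after seeing the data, the difference was -0.062 (95% interval -0.16 to 0.032, limma adjusted p = 0.416). An offset of 50 units was added to every spot before the logarithm, so differences of a probe as dim as this are understated.

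For miR-9 the normalised Hy3 signal was 12.64, 12.79, 12.86 and 13.04 on fear conditioned arrays 1 to 4, against 12.77, 12.70, 12.71 and 12.66 on home cage arrays 1 to 4. Fear conditioned array 1 lay below all home cage arrays and the other 3 fear conditioned arrays above them. The means were 12.83 ± 0.165 in fear conditioned and 12.71 ± 0.0450 in home cage mice (SD, n = 4 each). The difference of 0.12 (SE 0.0770, 95% interval -0.059 to 0.30) had an adjusted p of 0.484 in limma and an exact permutation p of 0.229. It was -0.023 under cyclic loess normalisation and 0.28 with arrays centred on their medians. With spike-in centring it was 0.14 as planned on both classes and 0.35 on the dimmer class alone. Relative to the median of all mouse probes it was 0.28 in both. Without fear conditioned array 4 it was 0.051, and without fear conditioned array 1 it was 0.18. For miR-124 the SD among fear conditioned mice was 2.77 times that among home cage mice, and for miR-9 it was 3.67 times. In both, fear conditioned arrays 3 and 4, the brighter arrays as a whole, lay above arrays 1 and 2. For miR-124* the quotient was 0.760 and for miR-9* 0.185. The miR-9* quotient takes in spots in high local background. With these left out its SDs were 0.122 in fear conditioned and 0.222 in home cage mice. In the deposited ratio the quotients were 1.88 for miR-124, 0.552 for miR-9, 0.657 for miR-124* and 0.342 for miR-9*. With 4 arrays a group these SDs are themselves loose and no test was made of them.

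**Figure D1:**
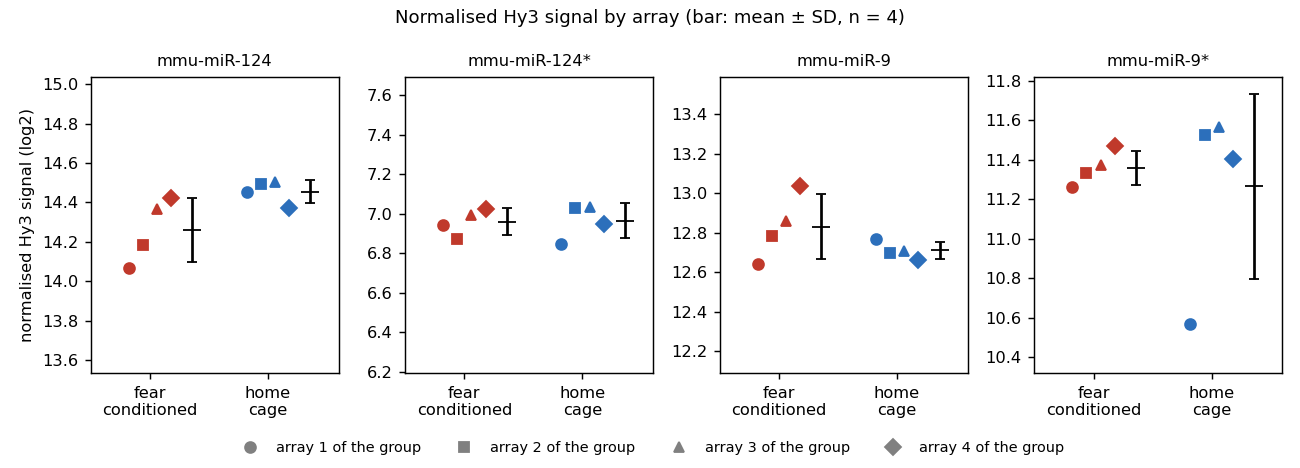
Normalised Hy3 signal (log2, vertical axis, each panel spanning the same number of log2 units) of the 4 probes on the 4 fear conditioned and 4 home cage arrays, with the mean and SD of each group as a black bar. For miR-124 fear conditioned arrays 1 and 2 sit at 14.07 and 14.18, below the home cage arrays, and for miR-9* home cage array 1 sits at 10.57, far below the other 7 arrays.

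The miR-9* probe behaved differently on 1 array. Its normalised Hy3 signal was 11.26, 11.33, 11.37 and 11.47 on fear conditioned arrays 1 to 4, against 10.57, 11.52, 11.57 and 11.40 on home cage arrays 1 to 4. Home cage array 1 stood apart from the other 7. The group means were 11.36 ± 0.0866 in fear conditioned and 11.27 ± 0.469 in home cage mice (SD, n = 4 each), with a difference of 0.093 (SE 0.210, 95% interval -0.39 to 0.58) and an adjusted p of 0.845 in limma.

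On home cage array 1 the spots of miR-9* in the earlier blocks of the array averaged 3431 intensity units, and those in the later blocks 645. Local background at the dim spots was up to 258 units, against 50 at its lowest, and 1576 spots of that array lay in background above 1.5 times the array median, compared with 3 to 126 on the other arrays. With such spots left out, miR-9* stood at 11.18, 11.36, 11.39 and 11.47 on fear conditioned arrays 1 to 4, against 11.92, 11.53, 11.57 and 11.39 on home cage arrays 1 to 4. That left 2 spots on home cage array 1. The difference became -0.25 (SE 0.111, 95% interval -0.51 to 0.0028), with an adjusted p of 0.256 in limma and an exact permutation p of 0.0571. Without home cage array 1 altogether it was -0.14, so the sign of the miR-9* difference rests on how those spots are treated.

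**Figure D2:**
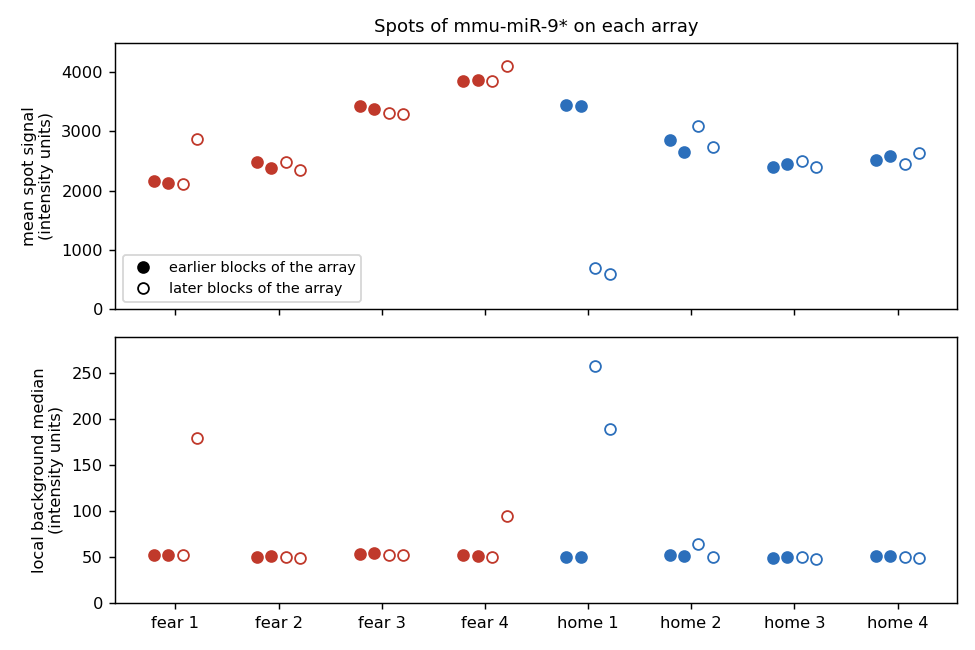
Mean signal (top) and local background median (bottom), both in intensity units, of the 4 spots of mmu-miR-9* on each array, with fear conditioned arrays 1 to 4 left and home cage arrays 1 to 4 right, and filled points for earlier blocks and open points for later blocks. The open points of home cage array 1 are the only spots whose signal is far below the array's other spots of the probe, and they have the highest background in the plot, 258 units at most.

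In the authors' own log ratios, deposited as sample against pool and taken here as log2, none of the 4 probes passed either. For miR-124 the ratio was 0.18, -0.11, 0.13 and -0.087 on fear conditioned arrays 1 to 4, against 0.23, 0.068, 0.057 and 0.096 on home cage arrays 1 to 4. Fear conditioned arrays 2 and 4 lay below the home cage arrays and arrays 1 and 3 within their range. The difference was -0.084 (SE 0.0794, 95% interval -0.26 to 0.092, limma adjusted p = 0.793). Fear conditioned array 2 was low in both measures, while array 1 was low in the Hy3 signal alone and array 4 in the ratio alone. Across the 8 arrays the values of miR-124 in both measures correlated at r = 0.036, which is a description of 8 points that share arrays and scans.

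The ratio of miR-9 was -0.016, -0.088, -0.052 and -0.16 on fear conditioned arrays 1 to 4, against -0.18, -0.16, 0.049 and -0.16 on home cage arrays 1 to 4. Home cage array 3 was the highest of the 8 and the other home cage arrays were at the low end. The difference was 0.035 (SE 0.0660, limma adjusted p = 0.902). For miR-9* the ratio was 0.17, 0.11, 0.10 and 0.25 on fear conditioned arrays 1 to 4, against 0.10, 0.049, 0.50 and 0.28 on home cage arrays 1 to 4. Home cage array 3 was again the highest, and home cage array 1 was not apart as it was in the Hy3 signal. The difference was -0.072 (SE 0.0939, limma adjusted p = 0.868). The ratio of miR-124* lay between 0.015 and 0.16 in fear conditioned mice and between -0.12 and 0.11 in home cage mice, with a difference of 0.073 (limma adjusted p = 0.762).

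**Figure D3:**
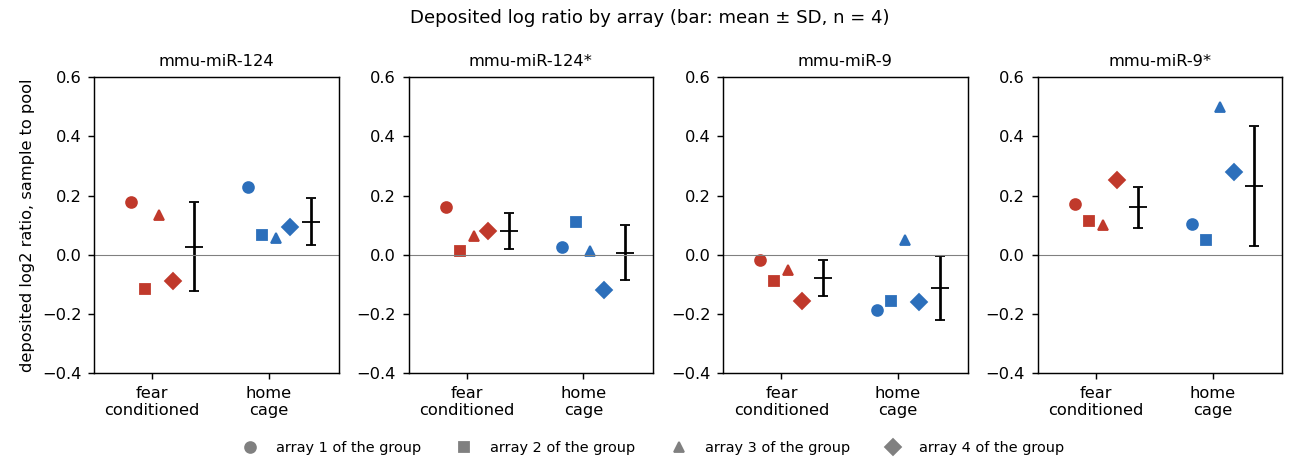
Deposited log ratio of sample to pool, taken as log2 (vertical axis, the same in all panels), of the 4 probes on the fear conditioned and home cage arrays, with mean and SD as a black bar and a grey line at 0. The groups overlap in every panel, and home cage array 3 is the highest point for miR-9 (0.049) and for miR-9* (0.50).

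Against the whole array, 0 of the 4 probes passed an adjusted p of 0.05 in the Hy3 signal, where 2 of 1034 mouse probes did (0.193%), and 0 of the 4 in the deposited ratio, where 0 of 1033 did (0%). Before adjustment limma put 146 mouse probes under 0.05 in the Hy3 signal, miR-124 among them, and 79 in the ratio, with no miR-124 or miR-9 probe among them. The groups overlapped for all 4 probes in both measures, while they did not overlap for 9.47% of 1003 probes measured on all arrays in the Hy3 signal and for 5.43% of 995 in the ratio. Counts of 0 among 4 probes are near those backgrounds and single no probe out.

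A difference taken between bright probes within an array moves little with a common brightness of the array, so differences within arrays were compared for 3 pairs of probes before any normalisation between arrays. This does not hold for the pair with miR-124*, which lies near the background and carries the offset. The signal of miR-124 minus that of miR-9 was 1.44, 1.40, 1.54 and 1.38 log2 units on fear conditioned arrays 1 to 4, against 2.04, 1.68, 1.68 and 1.56 on home cage arrays 1 to 4. Every fear conditioned array lay below every home cage array, though narrowly, at 1.54 against 1.56. How often other pairs of probes separate in this way was not counted. Among single mouse probes 9.47% of 1003 did so in the normalised Hy3 signal. The mean difference was 1.44 ± 0.0723 in fear conditioned and 1.74 ± 0.207 in home cage mice (SD, n = 4 each), which gives -0.30 between groups. An exact permutation test (two-sided) gave p = 0.0286, the smallest that 4 against 4 arrays allow, and 0.0857 after Benjamini-Hochberg adjustment over the 3 pairs, so the difference did not pass after adjustment.

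In the deposited ratio the same pair gave 0.19, -0.026, 0.19 and 0.070 on fear conditioned arrays 1 to 4, against 0.41, 0.22, 0.0081 and 0.26 on home cage arrays 1 to 4. Here the groups overlapped, since home cage array 3 lay below 3 of the fear conditioned arrays. The group difference was -0.12 with an exact permutation p of 0.229. Only the change of such a difference between groups can be read, because its size depends on how brightly each probe reports. It also cannot say which of the pair moved.

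The arms of miR-9 are cut from the same hairpin. Their difference, miR-9 minus miR-9*, was 1.43, 1.34, 1.46 and 1.39 on fear conditioned arrays 1 to 4, against 2.12, 1.28, 1.22 and 1.35 on home cage arrays 1 to 4. Apart from home cage array 1, where miR-9* had its dim spots, home cage arrays 2 and 3 lay below the fear conditioned range and array 4 at its low end. Without home cage array 1 the group difference was 0.12 (exact permutation p = 0.0857). With all arrays the group difference was -0.086 (exact permutation p = 0.971). With the high-background spots left out it was 0.28 (exact permutation p = 0.0571), where home cage array 1 stood at 0.79. In the deposited ratio it was 0.11 (exact permutation p = 0.171).

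For the arms of miR-124 the difference lay between 7.09 and 7.60 log2 units in fear conditioned mice and between 7.19 and 7.60 in home cage mice. It was 7.10 and 7.09 on fear conditioned arrays 1 and 2, and 7.49 and 7.60 on arrays 3 and 4, which were the brighter arrays as a whole. The ranges of the groups were nearly the same, and the group difference of -0.12 had an exact permutation p of 0.457. After quantile normalisation it was -0.19 with an exact permutation p of 0.0286, before any adjustment over the 3 pairs. Home cage array 1, where miR-124* had spots in high background, stood at 7.19 before quantile normalisation and at 7.61 after it. These were the lowest and the highest of the home cage values. In the deposited ratio the group difference was -0.16 with an exact permutation p of 0.143.

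**Figure D4:**
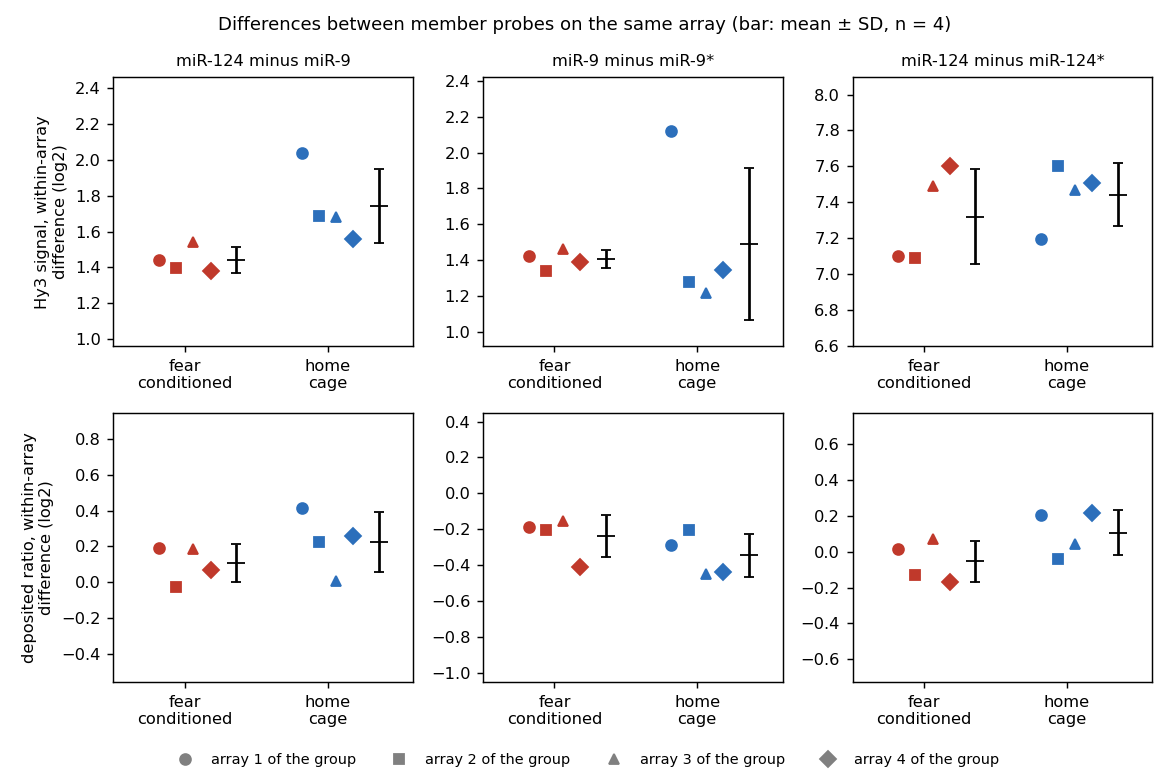
Differences between probes on the same array (log2, vertical axis) in the unnormalised Hy3 signal (top) and in the deposited ratio (bottom), fear conditioned left and home cage right, with mean and SD as a black bar. In the Hy3 signal miR-124 minus miR-9 is at most 1.54 on the fear conditioned arrays and at least 1.56 on the home cage arrays, and in the ratio the groups overlap.

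Other microRNAs enriched in neurons showed no call either. A list of 33 neuron-enriched names, without miR-124 and miR-9, had 69 probes on the array, of which 46 exceeded the negative controls throughout. In the Hy3 signal 17 of the 69 were higher and 52 lower in fear conditioned mice, 0 of them called, with a median difference of -0.038, but after median centring only 21 were lower and the median was 0.055. Over all 1034 mouse probes 493 were higher and 541 lower with a median of -0.0043. In the deposited ratio 44 of the 69 were higher and 25 lower, 0 called, with a median of 0.024, beside 653 higher and 380 lower of 1033 probes and a median of 0.031.

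The brightest members of that list were miR-138, miR-136 and miR-128. miR-138, which limits dendritic spine size in rat neurons, averaged 11.54 ± 0.204 in fear conditioned and 11.58 ± 0.128 in home cage mice (log2 Hy3 signal, SD, n = 4 each). miR-136 averaged 11.48 ± 0.223 in fear conditioned and 11.34 ± 0.229 in home cage mice, and miR-128, which dampens neuronal excitability in mice, 11.03 ± 0.201 in fear conditioned and 11.11 ± 0.0413 in home cage mice. All 3 differences were within the spread of the arrays, with limma adjusted p-values of 0.857, 0.670 and 0.678. The smallest p among lower probes belonged to miR-129-1-3p, with 10.52 ± 0.137 in fear conditioned and 10.88 ± 0.160 in home cage mice, a difference of -0.36 (limma adjusted p = 0.191) beside -0.051 in the ratio. Among higher probes it belonged to miR-138-2*, with 8.93 ± 0.0762 in fear conditioned and 8.66 ± 0.10 in home cage mice, a difference of 0.27 (limma adjusted p = 0.141) beside -0.063 in the ratio.

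The punches held more than neurons, and in such tissue fewer cells of a type and less RNA per cell cannot be told apart. The array reads the whole punch, so these files do not show in which cells miR-124 and miR-9 were made. Of the marker probes, 4 of 4 for oligodendrocytes, 3 of 6 for vessels, 3 of 5 for red blood cells, 3 of 6 for choroid plexus, 5 of 10 for microglia and leukocytes and 5 of 7 for astrocytes exceeded the negative controls throughout. The summed normalised signal of the 4 oligodendrocyte probes (miR-219 and miR-338) ranged from 2173 to 3756 in fear conditioned and from 1485 to 3187 in home cage mice. For the 6 vessel probes the sums ranged from 1935 to 2313 in fear conditioned and from 1473 to 2352 in home cage mice, and for the 5 red blood cell probes from 911 to 1610 in fear conditioned and from 922 to 1740 in home cage mice. The 6 choroid plexus probes ranged from 861 to 1630 in fear conditioned and from 712 to 1319 in home cage mice. These ranges overlap, and no probe of these lists passed the test.

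Animals differed widely in miR-204, the choroid plexus marker, at 9.47 ± 0.842 in fear conditioned and 8.92 ± 0.927 in home cage mice (log2 Hy3 signal, SD, n = 4 each). The oligodendrocyte marker miR-338-3p stood at 10.48 ± 0.339 in fear conditioned and 10.03 ± 0.840 in home cage mice. In the ratio it differed by -0.19. Of the 4 oligodendrocyte probes 2 were higher and 2 lower in the Hy3 signal, with a median difference of -0.015. Among them miR-219-5p differed by 0.11. Of the defining markers of vessels and red blood cells, miR-126-3p differed by 0.067, miR-143 by -0.0050, miR-145 by 0.16, miR-451 by 0.022 and miR-144 by 0.077. The choroid plexus marker miR-448-3p differed by 0.019 in the Hy3 signal and by 0.28 in the ratio. The other strand of miR-204, miR-204*, averaged 7.61 ± 0.137 in fear conditioned and 7.37 ± 0.0449 in home cage mice, a difference of 0.24 (limma adjusted p = 0.209), and differed by 0.36 in the ratio (limma adjusted p = 0.418). Its groups did not overlap in either measure. Over the 6 choroid plexus probes the median difference was 0.066 in the Hy3 signal and 0.28 in the ratio, beside -0.0043 and 0.031 over all mouse probes. Among the leukocyte markers miR-142-3p differed by -0.011, miR-223 by -0.10 and miR-150 by -0.26 (limma adjusted p = 0.112) in the Hy3 signal. In the ratio miR-142-3p differed by -0.091, miR-223 by -0.24 and miR-150 by 0.16, the last with the other sign. The sums of the 10 microglia and leukocyte probes were 1160 to 1220 in fear conditioned and 1205 to 1257 in home cage mice, and those of the 7 astrocyte probes, which other cells share, 1435 to 1562 in fear conditioned and 1545 to 1684 in home cage mice. Dim probes and the offset make up part of these sums too. Of the 7 astrocyte probes 1 was higher and 6 lower in the Hy3 signal, 0 called, with a median difference of -0.054. In the ratio 4 of them were higher and 3 lower, with a median of 0.033. The part of tissue makeup in the miR-124 and miR-9 values was not tested.

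Across the 8 arrays, the mouse probes whose normalised Hy3 signal followed that of miR-124 most closely were miR-708* (r = 0.98), miR-22* (r = 0.93) and miR-337-5p (r = 0.93), among 476 that exceeded the negative controls throughout. For miR-9 they were miR-214* (r = 0.90), miR-24 (r = 0.88) and miR-1186 (r = 0.86). In the deposited ratio the same pairs had r of 0.47, 0.54 and 0.066 with miR-124, and of 0.030, -0.029 and 0.57 with miR-9. The signals of miR-124 and miR-9 themselves correlated at r = 0.75 before normalisation and at r = 0.24 after it. All of these describe 8 arrays that share scans and brightness.

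**Figure D5:**
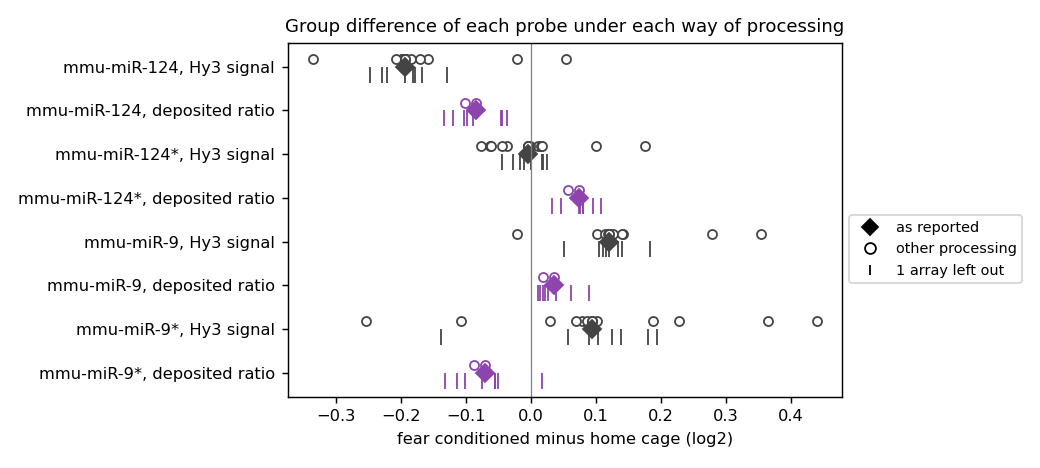
Difference between fear conditioned and home cage mice (log2, horizontal axis) of each probe in the Hy3 signal (grey) and in the deposited ratio (purple), as reported (diamond), under other processing (open circles) and with 1 array left out (ticks). In the Hy3 signal miR-124 ranges from -0.34 to 0.053 and miR-9* from -0.25 to 0.44. Both upper ends come from centring on the dimmer class of spike-in controls.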

How the data were processed

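RNA of 8 amygdala samples, 4 per group, was measured on miRNA arrays. The deposited files hold, per the file headers, a mean intensity, a local background intensity and a flag for each spot, in 1 channel. It was taken as Hy3, since its Hy3 landmark spots were lit (array medians 3581 to 4422 units). The authors also deposited log2 ratios of sample to pool. How they were normalised, and their log base, is not given in the sources used here. Deviations of both measures correlated at 0.34 to 0.74 by array over 480 probes.

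A loess fit of 2 channels was planned; with 1 channel, the stated fallback was used. Spots were corrected by normexp (offset 50) and quantile normalised over capture spots in limma 3.58.1 (R 4.3.3). Flags 3 and 4 were left out, which removed 2 of the 128 member spots, and spots of a probe averaged as log2. Groups were compared with limma, p-values adjusted over all mouse probes, and by exact permutation. The fit was tested on simulated data.

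Named probes were all members, the smallest p each way and the 3 brightest of the neuron-enriched list, defining cell type markers, and the 3 probes most correlated with each guide strand. Members and lists were chosen with earlier results of these data known. The labels list separate samples, and p-values measure the spread between these. Slide numbers of the groups form separate runs, so group and slide order cannot be told apart. Replicate numbers did not pair samples (correlations of same-numbered deviations -0.087, 0.031, -0.62 and 0.0046). Alternatives changed the background, scaling, spots, weights, filter and arrays. Figures used matplotlib 3.10.9.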

Additional observations from a re-analysis of the deposited data

Results flagged for a closer look

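Among 22 groups of 4 values that were screened, 3 held an array whose gap to the nearest of the others exceeded the 95% limit of Dixon's test, and chance alone gives such a gap in about 1 of 20 groups. In the Hy3 signal of miR-9*, home cage array 1 stood at 10.57, against 11.40 to 11.57 on the other home cage arrays. The same array gave 2.12 for miR-9 minus miR-9*, against 1.22 to 1.35 on the others, and both values rest on the same spots. In the deposited ratio of miR-9, home cage array 3 stood at 0.049, against -0.18 to -0.16 on the others.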

How the results depend on the processing

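Of 237 recomputed values, 210 were the same in direction and side of the threshold, 18 turned in sign and 9 crossed 0.05, and the cause was not tested. The 237 include counts of called probes, which have no direction. For the member probes and for the neuron-enriched list these were 22 counts each in the Hy3 signal and 10 each in the ratio. All stayed at 0 except that of the neuron-enriched list with array weights, so the 210 overstate how steady the differences were. For differences within arrays the threshold here was the exact permutation p before adjustment over the 3 pairs: 7 of the 9 are miR-124 minus miR-9, which did not pass after that adjustment, and 1 is the miR-124 arms. The miR-124* difference in the Hy3 signal became 0.0096 with offset 10, 0.10 with median centring, 0.014 with cyclic loess, 0.017 with flagged spots kept and 0.18 with centring on the first spike-in class. That class also turned miR-124 to 0.053. Cyclic loess turned miR-9 to -0.023. For miR-9* array weights gave -0.11 and omission of high-background spots -0.25. The first spike-in class is dim (array means 5.99 to 7.15) and the extended class bright (10.78 to 11.39). Both together, as planned, moved the median of all probes to -0.14, with miR-124 at -0.022 relative to it. Centring on each class alone and omission of high-background spots were chosen after seeing the data.

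Leaving out 1 array gave -0.045 to 0.023 for miR-124* and -0.14 to 0.19 for miR-9* in the Hy3 signal, -0.13 to 0.017 for miR-9* in the ratio, -0.25 to -0.13 for miR-124 and 0.051 to 0.18 for miR-9 in the Hy3 signal, -0.13 to -0.037 for miR-124, 0.032 to 0.11 for miR-124* and 0.011 to 0.088 for miR-9 in the ratio, -0.22 to -0.045 for the miR-124 arms (nearest 0 without fear conditioned array 2), -0.18 to 0.12 for the miR-9 arms, and -0.36 to -0.20 for miR-124 minus miR-9, whose exact permutation p was 0.0571 without any 1 fear conditioned array or home cage array 1. The lowest miR-9* value came without home cage array 1 in the Hy3 signal, and the highest in the ratio without home cage array 3. The miR-9 arms gave 0.026 after quantile normalisation, 0.11 in the ratio and 0.28 without high-background spots, and the miR-124 arms -0.19 after quantile normalisation. miR-124 minus miR-9 gave -0.12 in the ratio. With the replicate block it kept -0.30 with an exact permutation p of 0.125, the smallest that 4 pairs allow, so it could not pass. Own numbers correlated best for 0 of 4 arrays. The neuron-enriched list gained 1 call with array weights, miR-138-2* (0.31, limma adjusted p = 0.0455). Over all mouse probes 2 calls became 0 with the replicate block and between 0 and 5 under the others. No alternative called a miR-124 or miR-9 probe. Signal over background limits miR-124*.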
